A study of Homo sapiens with 10 samples.

Results

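Tenascin C (TNC), fibronectin (FN1) and 6 further genes for secreted glycoproteins of the extracellular matrix were followed in a bladder cancer cell line and its cisplatin-resistant derivative. The 8 genes, taken from 61533 annotated genes, were TNC, FN1, SPARC, THBS1, TGFBI, FBN1, FBN2 and HSPG2. They were chosen because of the way they differ between these libraries, so the differences between the lines that are given for them below describe the selected genes and were not tested. Of the 8 genes, 7 passed the filter on low counts, as did 16181 genes in all, and FBN2 did not.

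T24 is an established human bladder cancer line that responds to cisplatin, a platinum drug that crosslinks DNA. T24R2 was derived from T24 by serial exposure to cisplatin and is a single derived line. RNA-seq was run on 5 libraries of each line, all labelled day 3, with no drug treatment in the labels. The labels list one drug-free serum-containing medium for both lines, whereas the study's methods keep T24R2 in medium with cisplatin, so the line and the presence of the drug cannot be told apart. Nothing states whether the 5 libraries of a line came from separate cultures. The p-values therefore set the difference between the lines against the spread between these libraries, which may be technical.

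The extracellular matrix is the protein scaffold that cells secrete and attach to. Fibronectin and thrombospondin 1 carry binding sites for cell-surface integrins, tenascin C and SPARC are matricellular proteins that modulate adhesion, and fibrillins build the microfibrils that store latent TGF-beta. Perlecan, the product of HSPG2, is a heparan sulfate proteoglycan of basement membranes, the thin sheets on which epithelia rest. Tumours remodel this scaffold, and tenascin C is scarce in most normal adult tissue and abundant in healing wounds and tumour stroma.

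Library totals were 9257843 to 10840954 assigned fragments. Between the lines 8309 of 16181 tested genes (51.4%) were called different by edgeR's quasi-likelihood test, at an adjusted p below 0.05 and an absolute log2 fold change (LFC) above 0.5. Of these, 4027 (24.9% of the genes tested) were higher in T24R2 and 4282 (26.5%) were lower, a split that became 5206 and 3431 when libraries were scaled by their totals alone. That scaling moved the median LFC of all genes from 0.015 to 0.18. For 61.2% of the genes tested, the CPM of the lines (fragments scaled to library size) did not overlap. Against this background 2 of the 7 selected genes that were tested were called higher, 4 were called lower and 7 had non-overlapping values, counts from which nothing is read because the contrast chose the genes. Bladder epithelial markers were only partly kept in T24R2. Keratin 7 (KRT7) stood at 2242.3 ± 70.2 CPM in the parental and 1370.0 ± 64.6 CPM in the resistant line (mean ± SD, n = 5), whereas KRT19, at 267 ± 7.23 CPM in T24, was at least 964-fold lower in T24R2, and the urothelial factor GATA3 went from 22.1 ± 2.0 to 0.214 ± 0.210 CPM. The summed CPM of 14 epithelial and urothelial markers was 4943.3 to 5675.6 in T24 and 3012.6 to 3217.3 in T24R2. All 8 of these markers that were tested fell in T24R2, whereas KRT5, CDH1, UPK1B and UPK3A were near 0 in both lines.

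The sequences before TNC and HSPG2 are shown because, of the 8 genes, these had the largest difference in each direction. They are the RefSeq windows upstream of the start on GRCh38.p14, read 5′ to 3′ on the gene's strand and ended where an exon of any counted gene began. Capitals mark GC boxes (GGGCGG or its complement CCGCCC) and SMAD boxes (CAGAC or its complement).
TNC, chr9:115118258-115118407, minus strand: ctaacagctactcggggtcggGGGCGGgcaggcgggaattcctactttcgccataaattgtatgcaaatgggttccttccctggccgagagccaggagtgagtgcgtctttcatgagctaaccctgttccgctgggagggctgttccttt
HSPG2, chr1:21937311-21937560, minus strand: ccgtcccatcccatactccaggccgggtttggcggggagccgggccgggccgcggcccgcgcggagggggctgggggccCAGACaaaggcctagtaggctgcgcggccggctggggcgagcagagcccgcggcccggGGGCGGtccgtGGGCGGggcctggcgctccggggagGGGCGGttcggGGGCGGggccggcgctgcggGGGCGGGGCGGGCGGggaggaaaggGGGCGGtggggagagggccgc
The stretch before TNC held 1 GC box, which began 229 bases before the start, and its SMAD box began 70 bases before the start, past the end of the printed stretch. In the stretch before HSPG2 a SMAD box began 171 bases before the start, and the GC boxes crowded into the part nearest the start. Counts of GC boxes include matches that overlap each other, as some did in HSPG2 and FN1. Over the whole window of 300 bases, from 250 before to 50 after the start, HSPG2 held 10 GC boxes. It had a GC content of 83.3%, at percentile 99.5 of 35116 promoter windows. TNC held 1 GC box and had a GC content of 57.3%, close to the median of 58.7%. FN1 held 6 GC boxes in its window, which had a GC content of 76.7%.

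Across the 8 windows, searched on both strands, the GC box was found in 6, against 45.0% of all promoter windows, and the SMAD box in 4, against 45.3%. The TEAD motif GGAATG was found in 3 (14.0% of all windows). The TATA box TATAAA (11.5%), the AP-1 motif TGACTCA (4.95%) and the CArG box (1.29%) were in none of the 8. These matches describe letters in the windows and not binding.

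TNC was close to the counting limit in T24 and abundant in T24R2. TNC (ENSG00000041982.16; hg38 chromosome 9, 115019575 to 115118257, minus strand, 33 exon blocks of 9639 bases) encodes a six-armed matricellular glycoprotein that binds fibronectin. In T24 replicates 1 to 5 it had 0.208, 1.58, 0.343, 1.08 and 1.94 CPM. In the T24R2 replicates it had 323.3, 315.6, 338.7, 322.2 and 328.2 CPM. The T24 libraries held 2 to 18 fragments each and the T24R2 libraries 3338 to 3641. The spread of the T24 values was wide relative to their mean (coefficient of variation 73.4%, where counting error alone gives 32.3%), and that of the T24R2 values was narrow. The T24 mean was 1.03 ± 0.756 CPM and the T24R2 mean 325.6 ± 8.58 CPM (SD over 5 libraries), a ratio of 316, with an LFC of 8.28 (SE 0.12). This SE was derived from edgeR's test statistic, and other tools gave larger ones, 0.212 with DESeq2 without shrinkage and 0.339 with limma. Per length, TNC went from rank 15786 to rank 1221 among the tested genes. Its exons share 129 bases with DELEC1 on the opposite strand, which had 0.194 CPM in T24 and 17.7 in T24R2. Subtracting all DELEC1 CPM from TNC, an extreme allowance for shared fragments, gave a log2 ratio of the means of 8.53 instead of 8.31.

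FN1 was the most abundant of the 8 genes in each line and was close to doubled in T24R2. FN1 (ENSG00000115414.21; chromosome 2, 215360440 to 215436073, minus strand, 41 exon blocks) encodes fibronectin, the dimeric glycoprotein that cells assemble into fibrils through integrins. In T24 replicates 1 to 5 it had 7994.3, 7591.9, 7835.7, 9207.9 and 7696.3 CPM. In the T24R2 replicates it had 15402.7, 15879.4, 18491.0, 15908.2 and 16268.4 CPM. T24 replicate 4 and T24R2 replicate 3 stood above the others of their lines, yet the lowest T24R2 library was far above the highest T24 library. Means were 8065.2 ± 656 and 16390.0 ± 1214 CPM, with an LFC of 1.02 (SE 0.05). The LFC was 1.07 without T24 replicate 4 and 0.98 without T24R2 replicate 3. FN1 took 0.709 to 0.873% of all assigned fragments in T24 and 1.62 to 1.92% in T24R2, and went from rank 69 to rank 24 in level per length.

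SPARC was the member with the smallest difference between the lines. SPARC (ENSG00000113140.11; chromosome 5, 151661096 to 151686975, minus strand) encodes osteonectin, a collagen-binding matricellular protein. T24 libraries held 285.5, 259.5, 270.9, 282.8 and 280.4 CPM, and T24R2 libraries 341.1, 345.5, 391.4, 343.7 and 348.6 CPM. The lines did not overlap, and T24R2 replicate 3 was again the highest. Means were 275.8 ± 10.6 and 354 ± 21.1 CPM, with an LFC of 0.36 (SE 0.05), below the fold minimum of 0.5. The value was 0.33 without T24R2 replicate 3 and 0.52, past that minimum, with libraries scaled by their totals alone. CLMAT3, on the opposite strand, covers 4.12% of its exon bases, and subtracting all CLMAT3 CPM gave a log2 ratio of the means of 0.361 in place of 0.36.

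**Figure D1:**
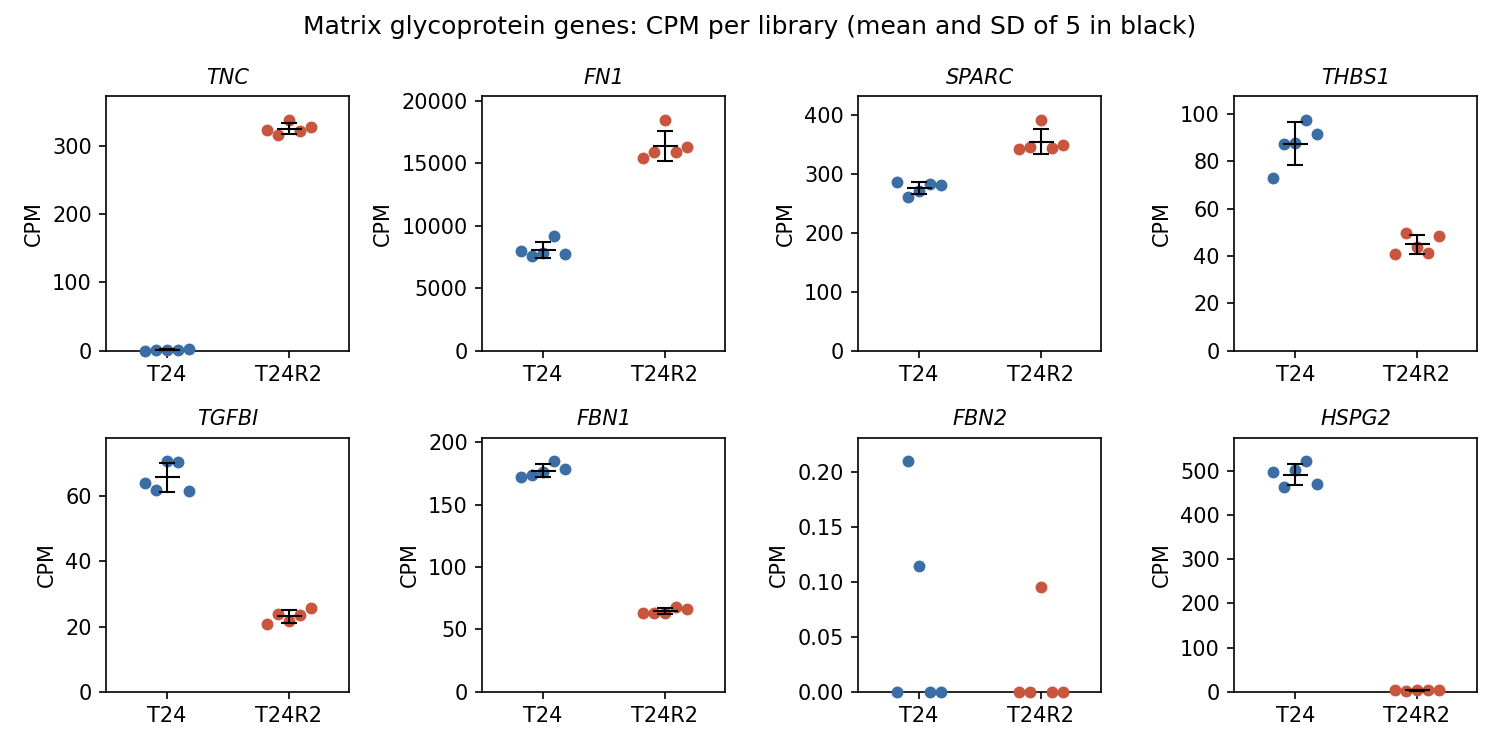
CPM of the 8 matrix glycoprotein genes in each library of T24 (blue) and T24R2 (red), on linear axes that start at 0. Black bars give the mean and SD of 5 libraries for the 7 tested genes. TNC, FN1 and SPARC sit higher in every T24R2 library, THBS1, TGFBI, FBN1 and HSPG2 sit lower, and FBN2 has at most 2 fragments in any library.

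HSPG2 showed the opposite pattern to TNC, being well expressed in T24 and nearly lost in T24R2. HSPG2 (ENSG00000142798.20; chromosome 1, 21822244 to 21937310, minus strand, 99 exon blocks of 18118 bases) encodes perlecan. It had 497.2, 464.5, 501.9, 522.6 and 470.3 CPM in T24 replicates 1 to 5. It had 3.58, 2.60, 4.80, 3.21 and 4.62 CPM in T24R2 replicates 1 to 5. Each line was tight and the gap between them wide. Means were 491.3 ± 23.9 and 3.76 ± 0.936 CPM, so T24 was 130.6-fold above T24R2, with an LFC of -7.04 (SE 0.08). Here too the SE was larger with other tools, 0.111 with DESeq2 without shrinkage and 0.157 with limma. The gene went from rank 1839 to rank 15406 in level per length. LDLRAD2 on the opposite strand covers 11.7% of the HSPG2 exon bases and had 76.7 CPM in T24 and 0.493 in T24R2. With all LDLRAD2 CPM subtracted from HSPG2, the log2 ratio of the means was -6.99 instead of -7.03.

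THBS1, TGFBI and FBN1 were all lower in T24R2 by moderate amounts. THBS1 (ENSG00000137801.11; chromosome 15, 39581079 to 39599466, plus strand) encodes thrombospondin 1, an activator of latent TGF-beta. It had 73.1, 87.3, 87.5, 97.6 and 91.4 CPM in T24 and 40.7, 49.9, 43.6, 41.4 and 48.6 CPM in T24R2. The lowest T24 library was well above the highest T24R2 library. Means were 87.4 ± 9.0 and 44.8 ± 4.16 CPM, with an LFC of -0.96 (SE 0.07).

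TGFBI (ENSG00000120708.17; chromosome 5, 136028988 to 136063818, plus strand) encodes a TGF-beta-induced protein that binds collagens and integrins. It had 64.0, 62.0, 70.8, 70.3 and 61.7 CPM in T24 and 20.9, 23.8, 21.7, 23.6 and 25.8 CPM in T24R2, again without overlap. Its LFC was -1.51 (SE 0.07). FBN1 (ENSG00000166147.15; chromosome 15, 48408313 to 48645721, minus strand) encodes fibrillin 1, the main protein of adult microfibrils. It had 171.8, 173.8, 176.4, 185.0 and 178.1 CPM in T24 and 63.0, 63.0, 63.3, 67.7 and 66.8 CPM in T24R2. These were the tightest values relative to their mean of the 3 genes, and the LFC was -1.45 (SE 0.05). FBN1 was also among the 3 tested genes whose profile over the 10 libraries lay closest to that of TGFBI, with a root mean square difference of 0.0825 in centred log2 CPM. The reverse did not hold, as the 3 closest to FBN1 were GOLIM4, GNB4 and CLDN11. Such profiles mostly follow the difference between the lines, by which both genes were chosen, so nothing is read from this closeness.

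FBN2 (ENSG00000138829.12; chromosome 5, 128257909 to 128659185, minus strand), which encodes the fibrillin best known from development, held 0, 2, 1, 0 and 0 fragments in the T24 libraries and 0, 0, 1, 0 and 0 in the T24R2 libraries. All 10 libraries were under the floor of 3 fragments per library, which corresponds to 0.323 CPM in T24 and 0.277 in T24R2 as a mean over the libraries of each line. A difference was not detectable at this depth, and no fold is given.

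The order of levels differed between the lines. Counted per length as FPKM, the CPM divided by the exon length in kilobases, FN1 came first in T24 at 468.5 ± 38.1, followed by SPARC at 59.4 ± 2.29 and HSPG2 at 27.1 ± 1.32 (SD, n = 5). FBN1 at 9.56, THBS1 at 9.54 and TGFBI at 8.52 followed, and neighbours among these 3 overlapped in their libraries. TNC at 0.107 and FBN2 came last. In T24R2 the order was FN1 at 952.0 ± 70.5, SPARC at 76.3 ± 4.54, TNC at 33.8 ± 0.89, THBS1 at 4.90, FBN1 at 3.50, TGFBI at 3.00, HSPG2 at 0.208 and FBN2, and no neighbours overlapped. Per length TNC and HSPG2 thus exchanged places. By CPM, with no division by length, HSPG2 was at place 2 in T24 and TNC at place 3 in T24R2, and 6 of 8 genes kept their place in each line.

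**Figure D2:**
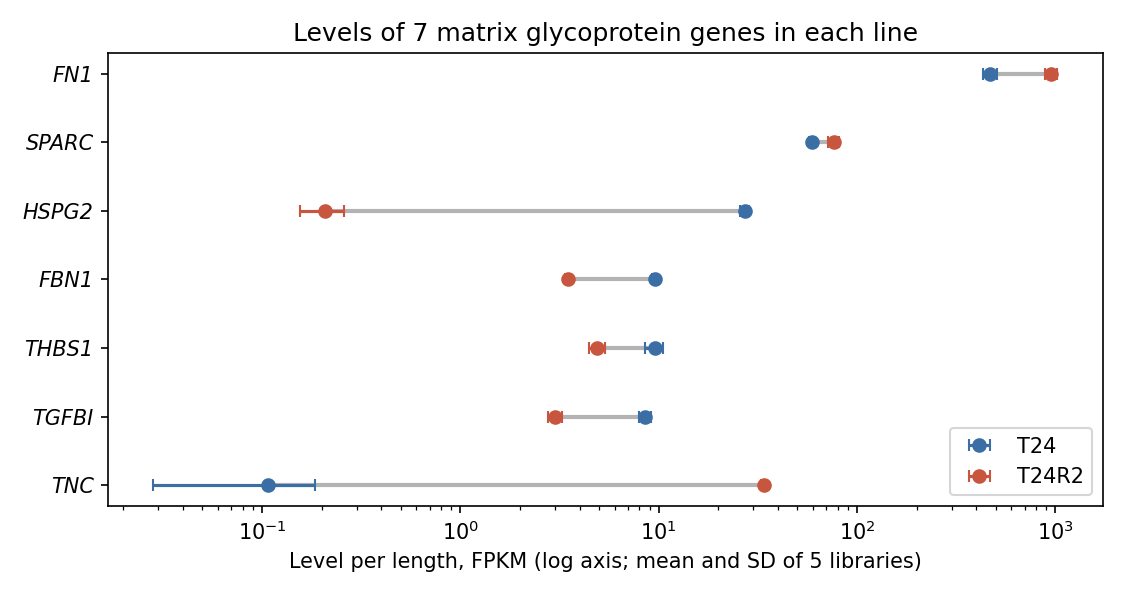
Level per length of the 7 tested matrix glycoprotein genes in T24 (blue) and T24R2 (red), in FPKM on a log axis, as the mean with the SD of 5 libraries. Grey lines join the lines of cells. TNC lies at 0.107 in T24 and 33.8 in T24R2, and HSPG2 at 27.1 and 0.208, while FN1 and SPARC hold the highest places in each line.

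FN1 made up most of the total. The summed CPM of the 8 genes was 8640.7 to 10367.2 in T24 and 16195.5 to 19354.6 in T24R2, and FN1 made up 87.6 to 88.8% and 95.1 to 95.5% of their fragments. In CPM, with no division by length, the 7 genes other than FN1 went the other way in sum. They had 1048.8 to 1159.3 CPM in T24 and 793 to 864 CPM in T24R2. Such a sum gives more weight to long genes, with 18118 exon bases in HSPG2 and 9639 in TNC. Per length the 7 genes did not fall in sum, since TNC went from 0.107 to 33.8 FPKM and HSPG2 from 27.1 to 0.208. Among the fragments of these 7 genes, HSPG2 held 43.4 to 45.5% in T24 and 0.325 to 0.562% in T24R2, and TNC held 0.019 to 0.179% and 39.2 to 40.8%. The share of SPARC was 24.4 to 26.2% and 42.4 to 45.3%.

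**Figure D3:**
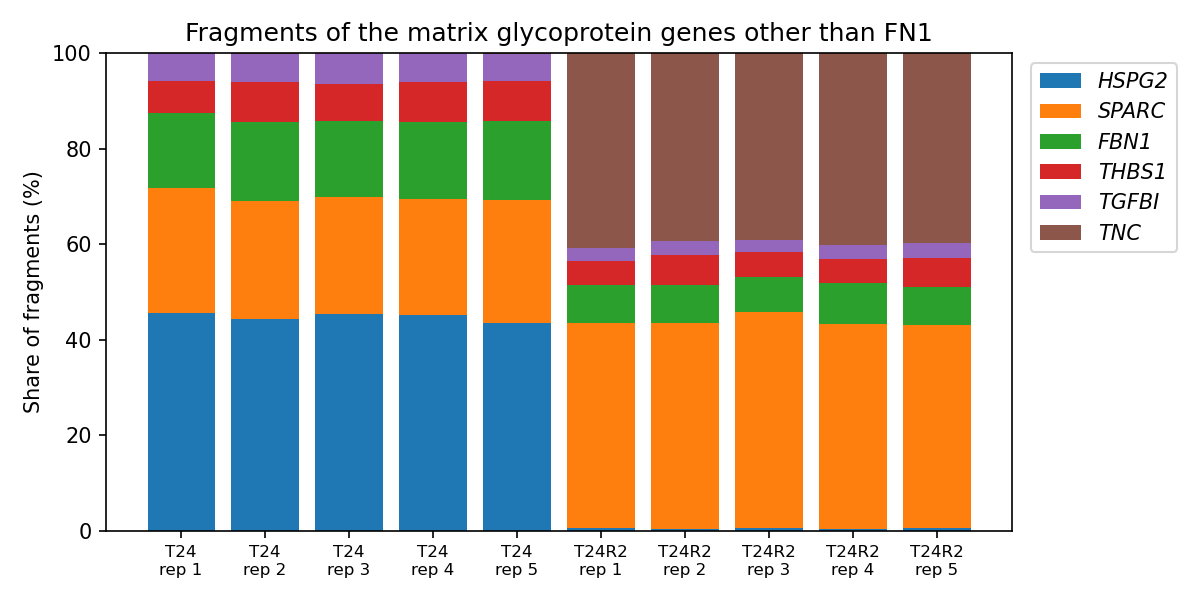
Share of fragments (percent, not corrected for length) that each gene took in each library, among the matrix glycoprotein genes other than FN1; FBN2, at 0.0201% or less, is not drawn. HSPG2 holds 43.4 to 45.5% of the T24 bars and under 0.6% of the T24R2 bars, where TNC holds 39.2 to 40.8%.

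Within the lines several genes had their highest or lowest value in the same library. T24 replicate 4 had the highest values of its line for FN1, THBS1, FBN1 and HSPG2, 4 of the 7 tested genes. T24R2 replicate 3 had the highest values for TNC, FN1, SPARC and HSPG2, also 4 of 7, and T24R2 replicate 1 had the lowest for FN1, SPARC, THBS1 and TGFBI. The other extremes were spread over several libraries, and how often other genes share a library in this way was not tested. T24R2 replicate 3 also had the largest share of mitochondrial transcripts of its line, 2.97% against 2.35 to 2.58% in the other T24R2 libraries and 2.68 to 2.91% in T24, and its part in these values was not tested.

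Genes with the most similar profiles over the 10 libraries were on other chromosomes. These profiles mostly follow the difference between the lines, by which the selected genes were chosen. For TNC they were UNC5A, a netrin receptor gene, at a root mean square difference of 0.719 in centred log2 CPM, the potassium channel gene KCNK3 at 0.799 and LINC00942 at 0.94. For FN1 the closest gene was CD109, at 0.0445, for SPARC it was SMAD2 at 0.0408, for THBS1 DLAT at 0.0746, for TGFBI CLDN11 at 0.0731 and for FBN1 GOLIM4 at 0.0335. For HSPG2 it was FCGRT, the neonatal Fc receptor gene, at 0.169, which had 46.9 CPM in T24 and 0.226 in T24R2. The genes next to the selected ones on the chromosome, which were looked up after the values were seen, moved with their gene in some cases and not in others. On the lower side of TNC, TNFSF8, 88980 bases away, had 0.617 CPM in T24 and 4.01 in T24R2. PAPPA, the nearest tested gene on the higher side of TNC but 1035534 bases away, had 2.14 and 0.0554 CPM. ATIC, 10667 bases from FN1, had 81.7 and 72.4 CPM, and LINC00607, 175490 bases away on the other side of FN1, had 0.0628 and 3.75 CPM. SMAD5, 69027 bases from TGFBI, had 80.7 and 76.1 CPM. The neighbours that overlap their gene on the opposite strand had LFCs of the same sign, -7.23 for LDLRAD2 beside HSPG2, -0.99 for THBS1-AS1 beside THBS1 and 0.35 for CLMAT3 beside SPARC. DELEC1, which overlaps TNC, and FSIP1, which overlaps THBS1, were not among these neighbours. LDLRAD2 shares 2122 exon bases with HSPG2, and the kit is not described as strand-specific. Fragments counted for these neighbours may therefore come from the selected gene, and their part in these LFCs was not tested.

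Close relatives of the 8 genes were mostly lower in T24R2. Of 20 relatives 13 were tested, 3 rose and 9 fell (92.3% called), with a median LFC of -1.64 beside 0.015 over all genes. The shares over all tested genes, to be set beside this list and those below, were 24.9% higher, 26.5% lower and 51.4% called. The losses included SPOCK1 (testican 1, a SPARC-family proteoglycan), from 189.1 ± 8.08 to 11.8 ± 3.52 CPM (LFC -4.01, SE 0.09, edgeR adjusted p = 9.1e-33), and FSTL1, another SPARC-family gene, from 666.8 ± 17.7 to 101.3 ± 6.57 CPM (LFC -2.72, SE 0.05). THBS2, the closest relative of THBS1, fell from 45.0 ± 3.53 to 5.49 ± 0.833 CPM. Opposite-strand genes cover 31.2% of the THBS2 exon bases, so it was not tested in the fit that left out such overlaps. The 4 latent TGF-beta binding protein genes, fibrillin relatives named after their values were seen, all fell, with LFCs of -1.64 for LTBP1, -1.69 for LTBP2, -0.77 for LTBP3 and -0.91 for LTBP4. Tenascin X (TNXB), at a low level, rose from 1.15 ± 0.497 to 5.01 ± 0.452 CPM (LFC 2.12, SE 0.26, edgeR adjusted p = 1.5e-09). THBS3 stood at 18.8 and 17.8 CPM and was not called.

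Other adhesive glycoprotein genes were split. Of 12 genes 6 were tested, 2 rose and 2 fell, with a median LFC of -0.046. CCN3, a matricellular growth regulator, rose from 0.300 ± 0.207 to 18.8 ± 2.19 CPM (LFC 5.90, SE 0.23, edgeR adjusted p = 3.1e-24). Its relative CCN1 fell from 1134.9 ± 23.3 to 596 ± 29.3 CPM, and MFGE8, which bridges integrins and phosphatidylserine, fell from 70.8 ± 6.04 to 32.5 ± 4.28 CPM. 1 of the 2 rises was lost when T24 replicate 5 or T24R2 replicate 4 was left out. For every gene reported here that the naming rule took from the 8 lists, the libraries of the lines did not overlap. The exact permutation test over 5 against 5 libraries then gave the smallest p this design allows (two-sided p = 0.00794). The rule took called genes with the largest LFC, so this outcome was nearly fixed by the choice and nothing is read from it. Of all tested genes, 61.2% had lines that did not overlap.

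Genes of microfibrils and elastic fibres, among which the fibrillins work, gave 3 that rose and 6 that fell of 13 tested (19 listed, median LFC -0.46). Fibulin 1 (FBLN1), which binds fibronectin and elastin, fell from 231 ± 14.8 to 6.73 ± 0.854 CPM (LFC -5.10, SE 0.07, edgeR adjusted p = 3e-39). FBLN7 and EMILIN2 did not exceed the floor of 3 fragments in any T24R2 library. The fall of FBLN7 was at least 33.4-fold, and that of EMILIN2 was at least 18.4-fold. ADAMTS17, a protease linked to fibrillin assembly, rose from 0.385 ± 0.379 to 8.64 ± 1.63 CPM.

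Basement membrane genes, the partners of perlecan, were lower in most cases. Of 21 genes 19 were tested, 13 fell and 4 rose, with a median LFC of -1.08, and the summed CPM of the list was 10682.7 to 10982.9 in T24 and 3091.2 to 3251.8 in T24R2. The collagen IV chain COL4A1 fell from 443.5 ± 25.6 to 34.0 ± 2.27 CPM (LFC -3.70, SE 0.06, edgeR adjusted p = 1.2e-38). Its partner COL4A2, named after its values were seen, fell from 992.8 ± 30.1 to 86.5 ± 4.69 CPM. LAMA4, a laminin chain best known from vessels, was at the floor in T24R2 and at least 369-fold lower there than its 102.3 ± 5.90 CPM in T24. The 4 genes that rose, NID2, LAMA2, COL4A4 and LAMA1, had mean levels under 5 CPM in T24R2.

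**Figure D4:**
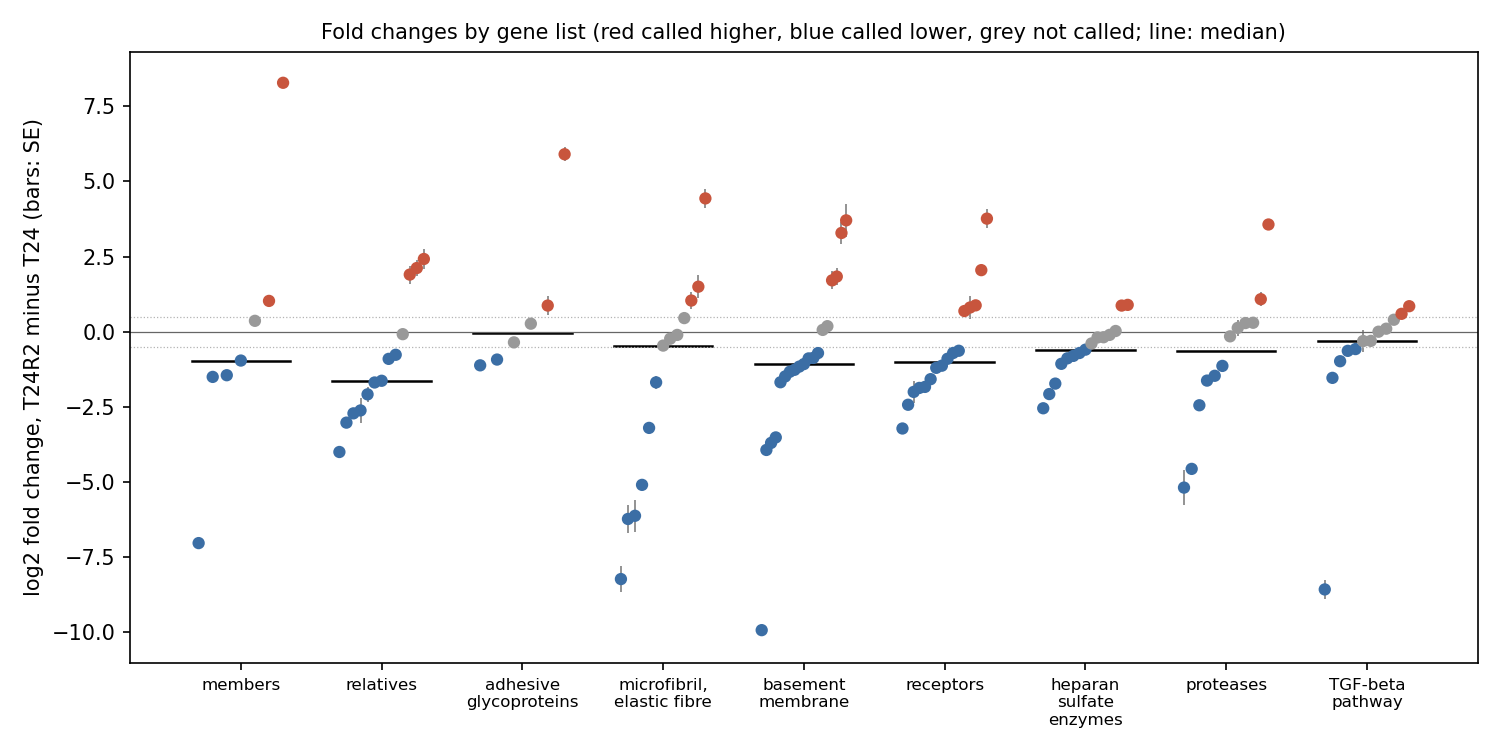
LFC (T24R2 minus T24) of each tested gene with its SE, by gene list, where members are the 7 tested matrix glycoprotein genes. The SEs come from edgeR's test statistic, and other tools gave larger ones for TNC and HSPG2. Red points were called higher in T24R2, blue points lower and grey points neither, black lines are list medians and dotted lines mark the fold minimum of 0.5. Medians run from -1.64 for relatives to -0.046 for adhesive glycoproteins, and TNC at 8.28 is the highest point of the plot. The 6 listed genes at the floor in 1 line are drawn at fitted values, which are no bounds.

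Receptors for these proteins changed in both directions. Of 20 genes 16 were tested, 5 rose and 11 fell, with a median LFC of -1.02. The weakest rise was that of ITGA9 (edgeR adjusted p = 0.046, libraries of the lines overlapping), and 4 receptors were called higher with DESeq2, without a count filter or with a replicate block, and 4 to 5 when 1 library was left out. Integrin alpha V (ITGAV) and integrin beta 3 (ITGB3), which pair into a receptor for fibronectin, fibrillin and other ligands, rose from 200.5 ± 12.6 to 367.7 ± 13.7 CPM (LFC 0.88, SE 0.05) and from 70.9 ± 6.55 to 293.1 ± 9.52 CPM (LFC 2.05, SE 0.05, edgeR adjusted p = 1.7e-30). The subunits of the classical fibronectin receptor, named after their values were seen, went the other way. ITGA5 fell from 186 ± 8.34 to 80.8 ± 6.88 CPM (LFC -1.20, SE 0.05) and ITGB1 from 1135.4 ± 39.6 to 517.5 ± 35.2 CPM (LFC -1.13, SE 0.04). ITGB8, a partner of alpha V that activates TGF-beta, fell from 82.2 ± 5.93 to 8.77 ± 0.748 CPM.

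The syndecans, heparan sulfate proteoglycans that act as co-receptors for fibronectin, fell except for SDC2, which rose to a low level. SDC1 fell from 264.3 ± 17.2 to 49.0 ± 1.78 CPM (LFC -2.43, SE 0.05, edgeR adjusted p = 4.1e-33), and SDC2 rose from 0.412 ± 0.227 to 5.72 ± 1.16 CPM (LFC 3.76, SE 0.31). SDC3 and SDC4 are named after their values were seen. SDC3 fell from 233.0 ± 8.50 to 65.1 ± 5.17 CPM and SDC4 from 477.4 ± 14.4 to 159.6 ± 8.49 CPM. CD47, the receptor for thrombospondin 1, fell from 170.8 ± 17.3 to 46.6 ± 3.87 CPM, alongside the lower level of its ligand gene.

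**Figure D5:**
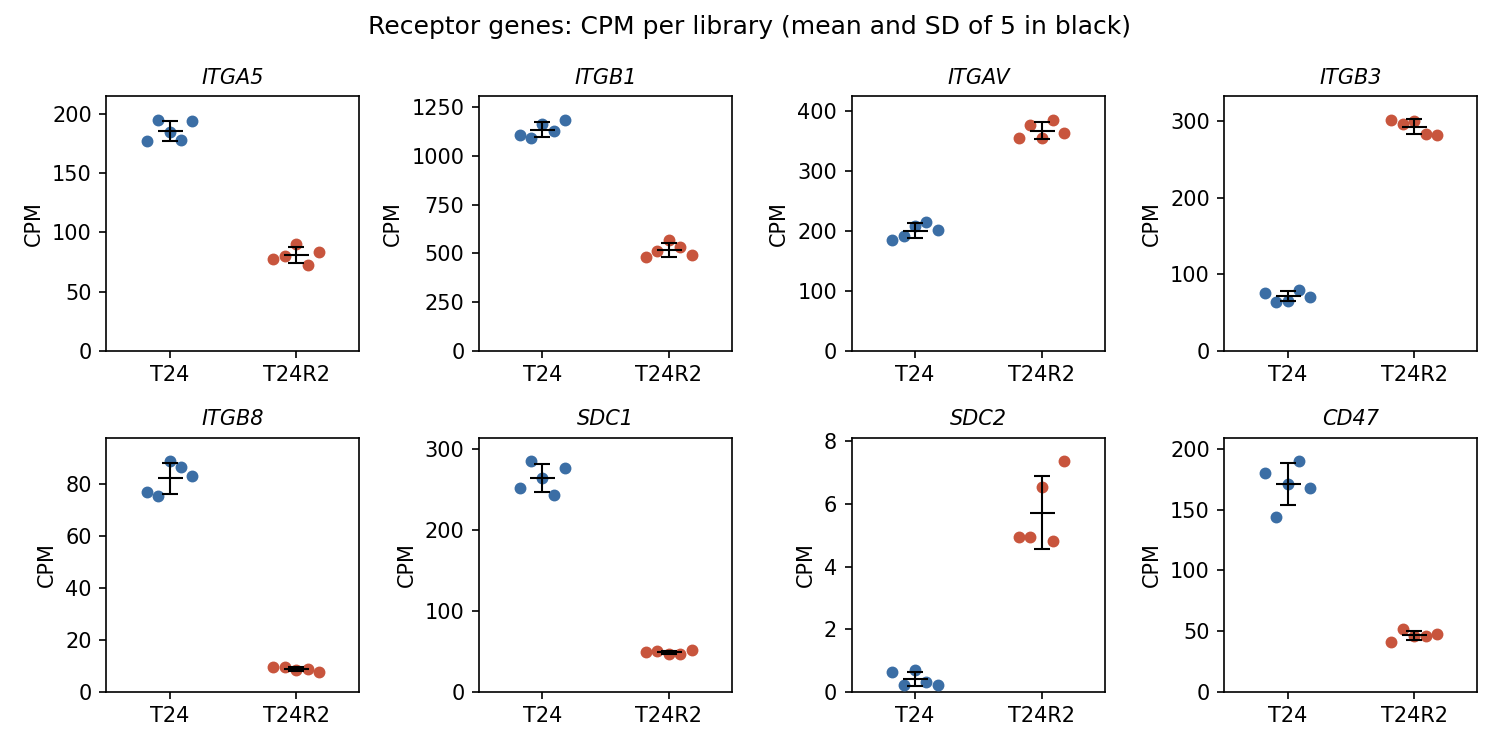
CPM of 8 receptor genes in each library of T24 (blue) and T24R2 (red), on linear axes that start at 0, with the mean and SD of 5 libraries in black. ITGAV, ITGB3 and SDC2 lie higher in T24R2, ITGA5, ITGB1, ITGB8, SDC1 and CD47 lie lower, and in each of the 8 panels the lines do not overlap.

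The enzymes that build and trim heparan sulfate, the sugar chains of perlecan and the syndecans, gave 2 that rose and 8 that fell of 15 tested (26 listed, median LFC -0.60). EXT2, a subunit of the chain polymerase, fell from 215.6 ± 6.87 to 65.0 ± 3.24 CPM (LFC -1.73, SE 0.05), and the extracellular sulfatase SULF2 fell from 77.9 ± 3.60 to 18.4 ± 1.54 CPM. HS3ST1, a 3-O-sulfotransferase, fell from 16.5 ± 1.66 to 2.82 ± 0.848 CPM. The epimerase GLCE rose from 43.7 ± 2.59 to 81.0 ± 5.61 CPM (LFC 0.89, SE 0.06), and HS6ST1 rose with an LFC of 0.87 (SE 0.09).

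Of 12 tested matrix processing proteases (17 listed) 2 rose and 6 fell, with a median LFC of -0.65. ADAMTS1, a metalloprotease that cleaves proteoglycans, fell from 254.2 ± 11.3 to 10.7 ± 1.74 CPM (LFC -4.57, SE 0.07, edgeR adjusted p = 2.9e-38). HTRA1, a secreted serine protease, fell from 33.0 ± 4.85 to 6.06 ± 1.17 CPM, and MMP14, a membrane-bound collagenase, from 570.5 ± 5.20 to 184.5 ± 9.29 CPM. PCSK6, a proprotein convertase, rose from 2.06 ± 0.859 to 24.6 ± 1.74 CPM (LFC 3.57, SE 0.16).

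The TGF-beta pathway, which is known to induce several of the 8 genes, gave 2 genes that rose and 5 that fell of 12 tested, with a median LFC of -0.31. The ligand gene TGFB1 fell from 301.2 ± 8.04 to 152.3 ± 11.5 CPM (LFC -0.98, SE 0.05, edgeR adjusted p = 3.5e-21), while TGFB2 rose from 9.64 ± 2.22 to 17.3 ± 1.94 CPM (LFC 0.85, SE 0.13). Opposite-strand genes cover 11.4% of the TGFB2 exon bases, so it was not tested in the fit that left out such overlaps. TGFBR1 rose with an LFC of 0.59 (SE 0.08), and the co-receptor TGFBR3 fell from 15.5 ± 1.42 to 5.35 ± 0.316 CPM. LRRC32, which anchors latent TGF-beta at the cell surface, had 18.9 ± 1.46 CPM in T24 and was at least 68.1-fold lower in T24R2.

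Over all 8 lists, 106 of 147 genes were tested, 23 rose (21.7%) and 60 fell (56.6%), with a median LFC of -0.74. This is 78.3% called, beside 51.4% of all tested genes, of which 24.9% were higher and 26.5% lower. By list the share called ran from 58.3% for the TGF-beta pathway to 100% for the receptors. The lists were chosen with earlier results of these data known. List medians were the same with the 6 genes at the floor in 1 line set to their bounds. This check could hardly give another outcome, since a median changes little when values far from it move. For the 2 tested fibroblast markers, outside these lists, the same step moved the median LFC from -5.38 to -3.14. Markers of other cell types, some of which secrete matrix, were measured alongside these genes. The summed CPM of 7 fibroblast markers was 8.86 to 11.2 in T24 and 0.954 to 2.29 in T24R2, with COL1A2, COL3A1, DCN and LUM at the floor in both lines, and both tested genes of 7 were lower. For 4 smooth muscle markers the sums were 4.88 to 6.02 and 3.64 to 4.10, with 1 of 4 tested and not called. For 4 endothelial markers the sums were 225.4 to 277.5 and 1.60 to 2.50, of which CDH5 accounted for 239 ± 22.3 and 0.559 ± 0.310 CPM, PECAM1 for 5.36 and 1.18, and KDR was at the floor in both lines. The 4 leukocyte markers summed to 0.648 to 1.89 and 0.356 to 1.34 CPM and none was tested. Whether any of these sums has a part in the levels of the 8 genes was not tested.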

How the data were processed

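RNA-seq was analysed from 5 libraries each of T24 and T24R2, grouped by their labels. According to the study's methods, the authors used STAR 2.7.0 for alignment (build hg38) and SAMtools 1.10 to retain unique, duplicate-free reads, and deposited raw counts per gene; per the file headers these are fragment counts from featureCounts 2.0.1 with strand option 1 on GENCODE 39. The kit is not described as strand-specific in the sources used here, so fragments from overlapping opposite-strand genes cannot be told apart from those of the gene itself. Counting error alone limits the precision of genes near the floor, taken as 3 fragments per library.

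From these counts the quasi-likelihood test of edgeR 4.0.16 was run on 16181 genes that passed filterByExpr, with TMM scaling and Benjamini-Hochberg adjustment over all of them. CPM used TMM-scaled library sizes, and FPKM divided CPM by the exon length in the tables. The edgeR, DESeq2 and limma fits were checked on simulated counts, in which far fewer genes changed than were called here. Alternatives used other scalings, DESeq2 1.42.0, limma 3.58.1, other filters, a replicate block, the omission of genes with over 10% opposite-strand overlap, and the omission of each library. The 8 genes and all lists were chosen with earlier results of these data known. From each list up to 3 genes per direction were named, those with the largest LFC among called genes with at least 5 CPM in the higher line, with 1 such gene not reported here, and for each of the 8 genes the 3 tested genes with the closest profile (log2 CPM, prior count 2). Promoter windows came from RefSeq, and all 8 genes matched.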

Additional observations from a re-analysis of the deposited data

Results flagged for a closer look

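In 8 of 90 combinations of a named gene and a line, 1 library lay far from the other 4 by Dixon's gap test, where chance alone gives about 4.5 (1 in 20). FN1 had 9207.9 CPM in T24 replicate 4, against 7591.9 to 7994.3 in the other T24 libraries, and 18491.0 CPM in T24R2 replicate 3, against 15402.7 to 16268.4. SPARC had 391.4 CPM in T24R2 replicate 3, against 341 to 349. The same library had 22.65 CPM of CCN3, against 17.2 to 18.3, and 4.319 CPM of HS3ST1, against 2.29 to 2.58. In T24R2 replicate 2, THBS2 had 6.935 CPM, against 4.81 to 5.32. FSTL1 had 89.55 CPM in T24R2 replicate 1, against 104 to 105. TGFBR3 had 18.07 CPM in T24 replicate 4, against 14.8 to 15.0. In each of these genes the libraries of the lines stayed apart with the distant library included.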

How the results depend on the processing

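The 7 tested matrix glycoprotein genes kept the direction of their LFC under every alternative in which they were tested; HSPG2 was not tested in the fit that left out genes with opposite-strand overlap. Without scaling beyond library size the TGF-beta pathway had 3 genes lower instead of 5. Without a count filter 4 adhesive glycoprotein genes were higher instead of 2. Requiring a mean of at least 100 counts, by its construction, tested fewer genes: 2350 were called higher and 2641 lower over all genes, 0 relatives, 0 microfibril genes, 0 basement membrane genes, 1 adhesive glycoprotein gene, 3 receptors and 1 protease were called higher, and 2 microfibril genes lower. Omitting genes with over 10% opposite-strand overlap took NID2, LAMA1 and TGFB2 out of the fit, so their rises were not tested there. Of the 16 basement membrane genes still tested 2 were called higher, and of the 11 TGF-beta pathway genes 1 was. Leaving out 1 library at a time gave 1 to 2 adhesive glycoprotein genes called higher, with 1 without T24 replicate 5 or T24R2 replicate 4. Of the LFCs of the 7 genes, 7 values moved by more than an SD, which is not the SE printed above, all under scaling by totals or by upper quartile. Moves beyond the SE also occurred under other alternatives. The LFC of TNC, 8.28 (SE 0.12), was 8.01 without T24 replicate 1, 8.63 without T24 replicate 5 and 8.62 with limma. Of the other counts, 385 stayed within 1.5 times the value given above. Same-numbered libraries did not deviate together (correlations of -0.021 to 0.0155, 1 of 5 best matched by its own number), and with the replicate block 3979 genes were higher and 4261 lower. Depth limits FBN2 and the T24 values of TNC.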
